A study of Homo sapiens with 414 samples.

Results

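The genes of the G2 phase and of mitosis were followed in single LNCaP cells by a list of 54 protein-coding genes, all of which were found among the 36135 genes of the count table and all of which passed the filter on low counts. The members were given by name, with no measured value in the rule, although the list was drawn up with earlier results of these data known. LNCaP is an androgen-responsive line from a human prostate carcinoma. The control cells carried a non-targeting siRNA from Dharmacon and the knockdown cells 1 siRNA against SULT2B1 from IDT, a sulfotransferase gene whose isoform b acts on cholesterol. Supplier, sequence and target differ together between the arms and cannot be told apart. Cells were harvested 48 h after transfection and caught singly on a Fluidigm C1 plate made for large cells. Each of 3 batches held both arms. The labels repeat well names in both arms of a batch, so each arm of a batch had its own plate. Plate and arm therefore cannot be told apart within a batch. The control arm had 76, 66 and 67 cells in batches 1, 2 and 3 and the knockdown arm 66, 65 and 61 cells. The reads of each arm and batch were summed into 1 library (n = 3 per arm), and the labels do not say that batches were separate cultures, so the tests measure the spread between batches, which may be technical.

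A cell in G2 has copied its DNA and prepares to divide. Cyclin B bound to the kinase CDK1 drives entry into mitosis. Polo-like and Aurora kinases build the spindle, kinetochores tie chromosomes to it, and the spindle checkpoint holds back the anaphase-promoting complex until all chromosomes are attached. Most of these genes are transcribed mainly in G2 and mitosis, under the DREAM and MuvB complexes, B-MYB (MYBL2) and FOXM1, through a promoter element called CHR, often together with CCAAT boxes bound by NF-Y. In resting or arrested cells the p53 target p21 (CDKN1A) leads to their repression through DREAM.

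The promoter letters are shown because most members were lower together and most share these elements. Of the 54 members, 46 had a promoter among the RefSeq entries used here (GRCh38.p14, 250 bases before to 50 after a gene's start, all entries of a gene counted). The words TTTGAA or TTCGAA (CHR, either strand, so also TTCAAA) were found in 33 of the 46 (71.7%), against 19.5% of 27305 genes with a promoter in the table. CCAAT (either strand, so also ATTGG) was found in 33 (71.7%), against 39.7%, and both kinds of word in 27 (58.7%), against 7.85%. The last 120 bases before the start are printed for 4 members with both words, for CCNB1 with CCAAT alone and for MELK, which had neither in this stretch. Capitals mark the words. The stretches are CCNB2 (chr15:59105026-59105145, plus strand), PLK1 (chr16:23678769-23678888, plus strand), CDC20 (chr1:43358861-43358980, plus strand), MKI67 (chr10:128126424-128126543, minus strand), CCNB1 (chr5:69167030-69167149, plus strand) and MELK (chr9:36572775-36572894, plus strand).
CCNB2: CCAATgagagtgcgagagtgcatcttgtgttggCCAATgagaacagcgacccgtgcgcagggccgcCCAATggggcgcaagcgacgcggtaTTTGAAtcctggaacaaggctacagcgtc
PLK1: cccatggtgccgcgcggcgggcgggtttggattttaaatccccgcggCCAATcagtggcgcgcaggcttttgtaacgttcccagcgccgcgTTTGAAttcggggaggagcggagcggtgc
CDC20: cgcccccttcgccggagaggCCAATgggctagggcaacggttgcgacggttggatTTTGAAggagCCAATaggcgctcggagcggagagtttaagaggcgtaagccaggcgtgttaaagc
MKI67: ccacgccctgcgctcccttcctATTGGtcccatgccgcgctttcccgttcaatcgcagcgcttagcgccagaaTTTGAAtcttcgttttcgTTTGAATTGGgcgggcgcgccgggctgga
CCNB1: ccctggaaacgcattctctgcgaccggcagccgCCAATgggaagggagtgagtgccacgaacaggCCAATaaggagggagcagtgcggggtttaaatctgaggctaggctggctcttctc
MELK: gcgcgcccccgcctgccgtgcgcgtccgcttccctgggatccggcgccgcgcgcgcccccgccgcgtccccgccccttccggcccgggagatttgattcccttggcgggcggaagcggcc

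In CCNB2 3 CCAAT boxes stood ahead of 1 TTTGAA, and in MKI67 there were 2 TTTGAA words. A match is a description of letters and was not tested for binding. Members with a CHR word had a median log2 fold change, knockdown over control, of -1.42 (33 genes), and members with a promoter but no such word of -1.03 (13 genes). In batch 2 alone the medians were -2.88 and -1.93 on the log2(CPM + 1) scale. CPM is a gene's count relative to the library's total, scaled by edgeR's trimmed mean method, and 1 is the pseudocount.

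The libraries fit their labels in the targeted gene: SULT2B1 had 152, 109 and 332 reads in the control libraries of batches 1, 2 and 3, and 13, 21 and 0 in the knockdown libraries. Its change did not pass the edgeR test (adjusted p = 0.268). All 12 LNCaP luminal markers had reads, with summed levels of 7938 to 10304 CPM in control and 5289 to 8098 in knockdown. The 12 markers found for blood, endothelial, fibroblast, basal and neuroendocrine cells summed to between 2.95 and 12.8 CPM in any library, and none of the 12 was without a read over the 6 libraries. Median depth per cell ran from 1057697 to 1163883 reads in the control libraries and from 1092399 to 1406270 in the knockdown libraries. A mitochondrial share above 20%, as damaged cells can show, was seen in 21, 8 and 6 control cells and in 6, 0 and 2 knockdown cells.

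As a group the members were lower in knockdown cells, most of all in batch 2. Summed over the members, the level was 7721, 9906 and 4888 CPM in the control libraries of batches 1, 2 and 3, and 4792, 2354 and 3178 CPM in the knockdown libraries. Every knockdown library was below every control library in this sum, but knockdown library 1 and control library 3 lay close together. Control was 1.61 times knockdown in batch 1, 4.21 times in batch 2 and 1.54 times in batch 3. Of the 54 members, 52 had a negative log2 fold change, against 49.6% of the 20326 genes tested, and the median was -1.35 against 0.01.

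By edgeR's quasi-likelihood test with Benjamini-Hochberg adjustment, 1 of 54 members was called lower (MELK), where 0.384% of all genes were, and 0 were called higher, where 0.394% of all genes were. At an unadjusted p under 0.05, 37 members were lower and 0 higher, where 7.08% of all genes were lower. DESeq2 called 24 members lower and 0 higher. Of the 19944 genes that passed the edgeR filter and had a DESeq2 adjusted p, 899 (4.51%) were called lower and 850 higher. With batch as a block, edgeR called 0 members, where 0.059% of all genes were called lower, and 32 members were lower at an unadjusted p under 0.05, where 6.61% of all genes were. In CPM, 23 of 54 members were lower in every knockdown library than in every control library, against 10.1% of all genes. Within each of the 3 batches, 48 of 54 members were lower in the knockdown library, against 18.2% of all genes.

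**Figure D1:**
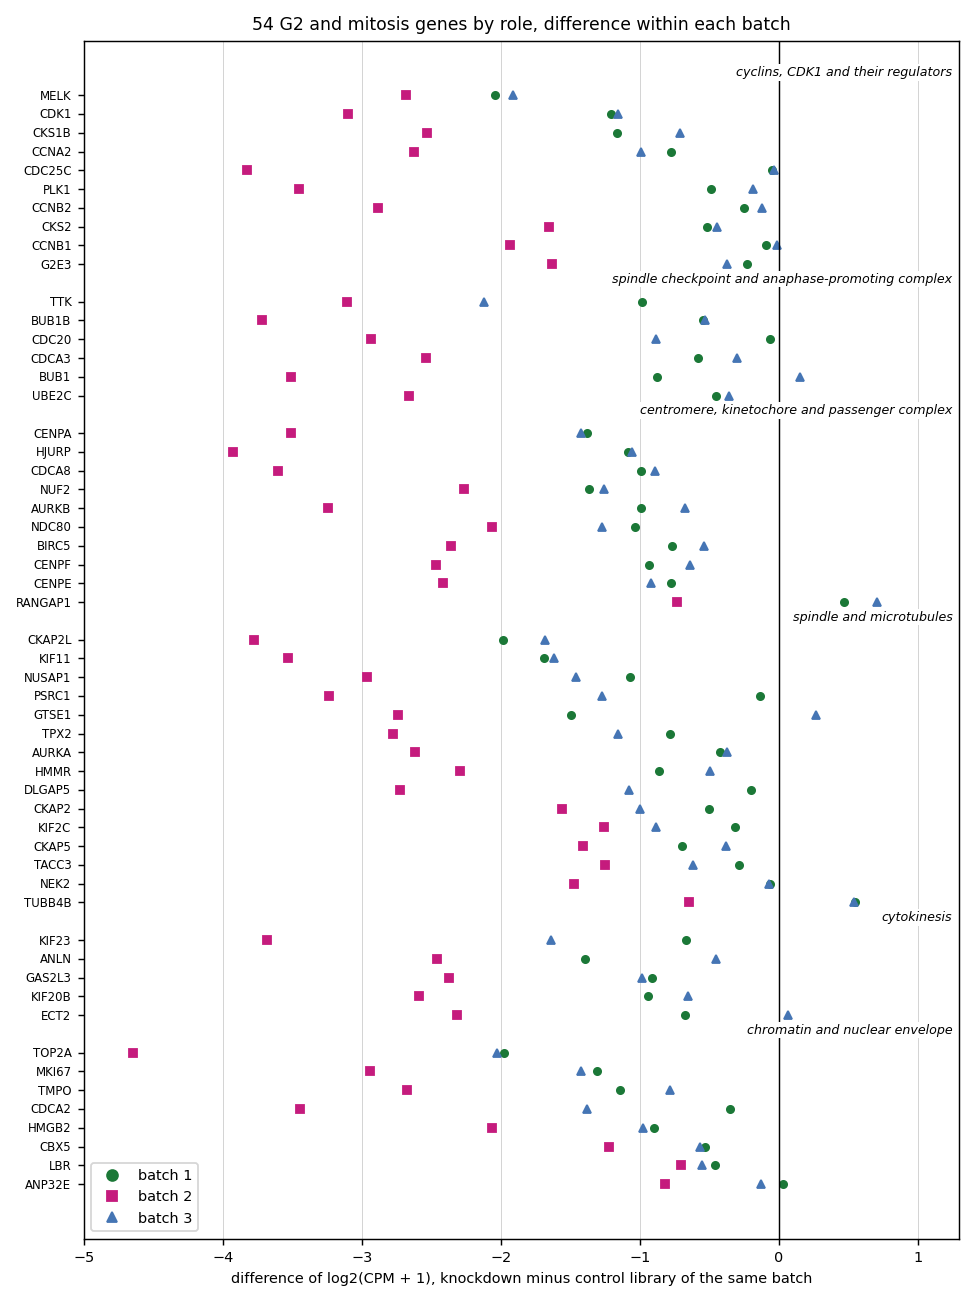
Difference of log2(CPM + 1) between the knockdown and the control library of the same batch (x axis) for each of the 54 members (y axis, grouped by role), with 1 mark per batch and the line at 0 for equal levels. Batch 2 (squares) has the most negative value in 54 of 54 members.

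The exceptions were few. TUBB4B, a beta-tubulin, had a log2 fold change of 0.07 and RANGAP1, which activates the GTPase Ran at kinetochores and nuclear pores, of 0.10, both with p far from the threshold (edgeR adjusted p = 0.957 and 0.964). Both were named after their values were seen, and both were higher in the knockdown library in batches 1 and 3. ANP32E, a histone chaperone for H2A.Z, was 0.03 higher in batch 1 on the log2 scale, and BUB1, GTSE1 and ECT2 were 0.16, 0.26 and 0.06 higher in batch 3.

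The first role is that of the cyclins, CDK1 and their regulators, with 10 members. MELK, a kinase of dividing cells (ENSG00000165304, chromosome 9, 36572862 to 36677683, plus strand, GENCODE 29 on GRCh38), was at 87.6, 111 and 78.9 CPM in control libraries 1, 2 and 3, and at 20.5, 16.5 and 20.3 CPM in knockdown libraries 1, 2 and 3. The knockdown values lay far below the control values and close to each other, without overlap. MELK fell by 2.28 on the log2 scale (SE 0.200, edgeR adjusted p = 0.00573), from 92.5 ± 16.6 to 19.1 ± 2.27 CPM (SD, n = 3). With batch as a block its adjusted p was 0.0614, which ends the call. Over all alternatives the adjusted p ran from 7.7e-25 (DESeq2) to 0.166, and without both libraries of batch 1, 2 or 3 it was 0.166, 0.104 and 0.136.

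CDK1, the kinase that cyclin B activates (ENSG00000170312, chromosome 10, 60778331 to 60794852), was at 663, 784 and 391 CPM in control and 287, 90.6 and 175 CPM in knockdown. No knockdown library reached the lowest control library. The log2 fold change was -1.73 (SE 0.429, edgeR adjusted p = 0.135, DESeq2 adjusted p = 0.00167). CCNB1, cyclin B1 (ENSG00000134057, chromosome 5, 69167010 to 69178245), was at 324, 547 and 186 CPM in control and 303, 142 and 185 CPM in knockdown. Here the arms overlapped, and the libraries of batches 1 and 3 were almost level while those of batch 2 were 3.84-fold apart. CKS2, a small subunit of CDK complexes, was at 438, 626 and 294 CPM in control and 305, 198 and 215 CPM in knockdown, which overlapped because knockdown library 1 exceeded control library 3.

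PLK1, the polo-like kinase of mitotic entry and spindle building (ENSG00000166851, chromosome 16, 23677656 to 23690367), was at 32.7, 51.4 and 15.6 CPM in control and 23.0, 3.78 and 13.6 CPM in knockdown. CDC25C, the phosphatase that activates CDK1, was at 21.8, 71.5 and 16.3 CPM in control and 21.0, 4.11 and 15.9 CPM in knockdown. In CDC25C the libraries of batches 1 and 3 lay close together. In PLK1 only those of batch 3 did, and in both genes the arms stood furthest apart in batch 2. A single cell held 27.2% of the CDC25C reads in control library 2, 48.0% in knockdown library 2 and 55.6% in knockdown library 3. The batch 2 difference of CDC25C was 3.79 more negative on the log2 scale than the mean of batches 1 and 3, the widest gap among the members with a mean of at least 5 CPM. The 10 members of this role had a median log2 fold change of -1.36, and 3 of them did not overlap between the arms. Over all genes 10.1% were lower without overlap, the share to set beside the counts of each role.

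The second role, the spindle checkpoint and the anaphase-promoting complex, had 6 members, a median of -1.25 and 1 member without overlap (16.7%, against 10.1% of all genes). BUB1B, the checkpoint protein BubR1, was at 81.2, 125 and 42.8 CPM in control and 55.4, 8.60 and 29.3 CPM in knockdown. UBE2C, the ubiquitin-conjugating enzyme of the anaphase-promoting complex, was at 99.0, 161 and 55.3 CPM in control and 72.2, 24.5 and 42.8 CPM in knockdown. BUB1, the checkpoint kinase, was at 97.7, 89.8 and 30.5 CPM in control and 52.8, 6.97 and 34.1 CPM in knockdown. In these 3 genes knockdown library 1 stood above control library 3, and knockdown library 2 was the lowest of the 6. CDC20, the activator of the complex, was at 24.3, 54.5 and 23.5 CPM in control and 23.3, 6.27 and 12.3 CPM in knockdown, which narrowly did not overlap (edgeR adjusted p = 0.362).

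The third role, the centromere, the kinetochore and the chromosomal passenger complex, had 10 members and a median of -1.54, and 4 did not overlap. CENPF, a large kinetochore protein, was at 418, 412 and 173 CPM in control and 218, 73.6 and 111 CPM in knockdown. BIRC5, survivin, a subunit of the passenger complex, was at 184, 413 and 165 CPM in control and 107, 79.7 and 114 CPM in knockdown. BIRC5 did not overlap, whereas CENPF did, through knockdown library 1. The other 8, among them AURKB, CDCA8, NDC80 and the centromeric histone CENPA with its chaperone HJURP, had log2 fold changes from -2.23 (CENPA) to 0.10 (RANGAP1). The CENPA value rests on few cells, since only 13 knockdown cells had a read and 1 cell held 82.4% of the reads of knockdown library 3. As a mean of CPM over cells, CENPA was at 17.7 in control and 20.9 in knockdown in batch 1.

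Spindle and microtubule genes formed the fourth role, with 15 members, a median of -1.20 and 7 members without overlap. NUSAP1, which binds and bundles spindle microtubules, was at 304, 495 and 248 CPM in control and 144, 62.5 and 89.6 CPM in knockdown, without overlap (log2 -1.82, SE 0.364, edgeR adjusted p = 0.0836). It passed with equal weight per cell (0.0428) and after thinning each cell to 100000 reads (0.0212). CKAP5, a microtubule polymerase, was at 284, 313 and 210 CPM in control and 175, 117 and 161 CPM in knockdown, also without overlap. AURKA, the Aurora kinase of the centrosome, was at 50.5, 105 and 29.7 CPM in control and 37.4, 16.3 and 22.7 CPM in knockdown, with knockdown library 1 above control library 3. KIF2C, a microtubule-depolymerizing kinesin, was at 26.4, 46.2 and 22.4 CPM in control and 21.1, 18.8 and 11.7 CPM in knockdown. Its arms did not overlap, and batch 2 stood out less than in most members. A single cell held 75.04% of the KIF2C reads in knockdown library 2, so the batch 2 difference of this gene rests largely on 1 cell. The spindle motor KIF11 and CKAP2L had 2 of the 5 most negative log2 fold changes of all members (-2.18 and -2.57).

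Cytokinesis had 5 members, a median of -1.55 and 2 members without overlap. ECT2, the exchange factor that starts the contractile ring, was at 157, 254 and 86.4 CPM in control and 98.3, 50.2 and 90.4 CPM in knockdown. KIF20B, a kinesin of the midzone, was at 89.5, 98.5 and 49.1 CPM in control and 46.2, 15.5 and 30.9 CPM in knockdown. KIF20B did not overlap, and ECT2 did. ANLN, GAS2L3 and KIF23 had log2 fold changes of -1.56, -1.55 and -1.64.

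Chromatin and the nuclear envelope formed the last role, with 8 members, a median of -1.38 and 6 members without overlap. TOP2A, the topoisomerase that untangles sister chromatids (ENSG00000131747, chromosome 17, 40388516 to 40417950, minus strand), was at 217, 216 and 113 CPM in control and 54.3, 7.68 and 26.9 CPM in knockdown. It had the most negative fitted value of the members, -2.62 (SE 0.652, edgeR adjusted p = 0.136), with no overlap. MKI67, the proliferation antigen Ki-67, was at 122, 131 and 77.7 CPM in control and 48.8, 16.1 and 28.4 CPM in knockdown, again without overlap (log2 -1.83, SE 0.409, edgeR adjusted p = 0.108). HMGB2, a chromatin protein, was at 411, 400 and 171 CPM in control and 220, 95 and 86.3 CPM in knockdown. CBX5, heterochromatin protein HP1 alpha, was at 663, 889 and 592 CPM in control and 459, 381 and 401 CPM in knockdown. LBR, the lamin B receptor of the inner nuclear membrane, was at 168, 141 and 154 CPM in control and 122, 86.1 and 105 CPM in knockdown. CBX5 and LBR did not overlap, while HMGB2 overlapped through knockdown library 1. With KIF2C, CBX5 and LBR were the 3 members whose batch 2 difference was closest to that of the other batches. For KIF2C that difference rests largely on 1 cell of knockdown library 2.

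**Figure D2:**
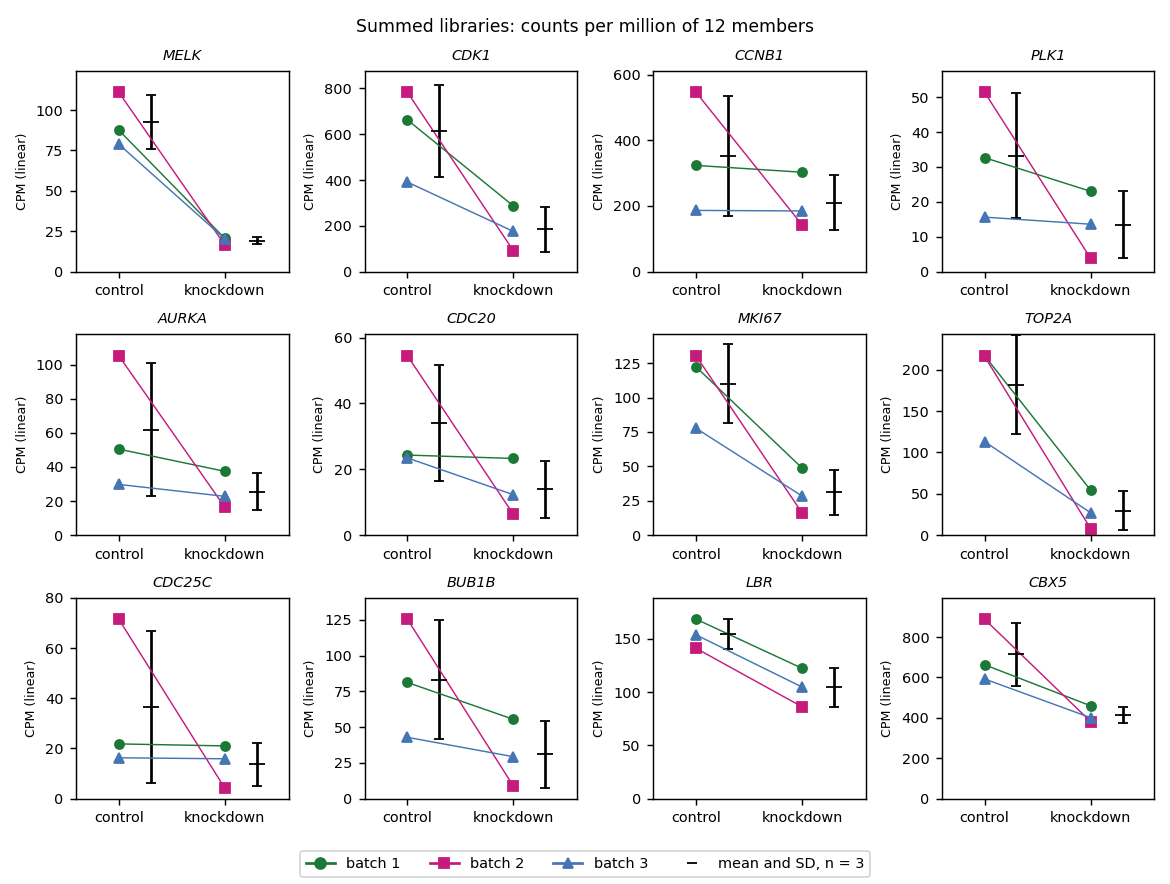
CPM of 12 members (linear y axis from 0) in the summed control and knockdown libraries (x axis), with lines joining the libraries of a batch and bars for the mean and SD of 3 libraries. MELK and LBR have similar slopes in the 3 batches, while CCNB1, PLK1 and CDC25C differ between arms mainly in batch 2.

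The batch 2 pattern came from both arms. Among the controls, library 2 was the highest in 43 of 54 members (33.5% of all genes) and library 3 the lowest in 53 (31.7%). Among the knockdowns, library 2 was the lowest in 48 (33.8%) and library 1 the highest in 52 (33.6%). On the log2(CPM + 1) scale, control library 2 was a median of 0.33 above control library 1 and 1.11 above control library 3. Knockdown library 2 was a median of 1.36 below knockdown library 1 (difference -1.36) and 0.51 below knockdown library 3 (difference -0.51). The medians of the knockdown minus control difference over the members were -0.77, -2.62 and -0.70 in batches 1, 2 and 3, and 0.00, 0.01 and 0.00 over all genes.

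Leaving out whole libraries moved the size but not the sign of the median. It was -1.03 without knockdown library 2, -1.08 without control library 2, and -0.75 without both libraries of batch 2, where 0 members passed and 13 were lower at an unadjusted p under 0.05 (edgeR; 5.64% of all genes were). Without both libraries of batch 1 it was -1.76 and of batch 3 -1.59, again with 0 members past an adjusted p of 0.05 and with 41 and 31 members lower at an unadjusted p under 0.05, where 5.98% and 5.76% of all genes were. The spread within the arms was as wide as many differences between them: set against each other across batches, knockdown library 1 was below control library 3 in 24 of 54 members, with a median difference of 0.07.

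Whether fewer cells or less RNA per cell went with these totals was read from single cells. The ratio of mean CPM over cells is the product of 2 ratios, that of the share of cells with a read and that of the mean CPM in cells with a read. In batch 1 the medians over the members were -0.56 on the log2 scale for the share and -0.17 for the level per cell with a read. In batch 3 they were -0.49 and -0.35. In batch 2 both were larger, -1.15 for the share and -1.47 for the level (52 members with reads in at least 3 cells of each arm). Over all genes these medians lay between -0.06 and 0.09 in every batch.

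With at least 5 reads as the limit, the order of the parts in batch 2 turned: -1.61 for the share and -1.04 for the level. After thinning each cell to 100000 reads they were -1.63 and -1.11. In batch 1 the level was -0.08 with at least 5 reads and 0.00 after thinning, so that under these settings the share carried nearly all of the difference. Without cells over 20% mitochondrial reads, the batch 1 medians were -0.53 for the share and -0.29 for the level. As an example of the limit, TOP2A had at least 1 read in 100% of the cells of control library 2 but at least 5 reads in 72.7%. Why the limit changed the parts was not tested.

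**Figure D3:**
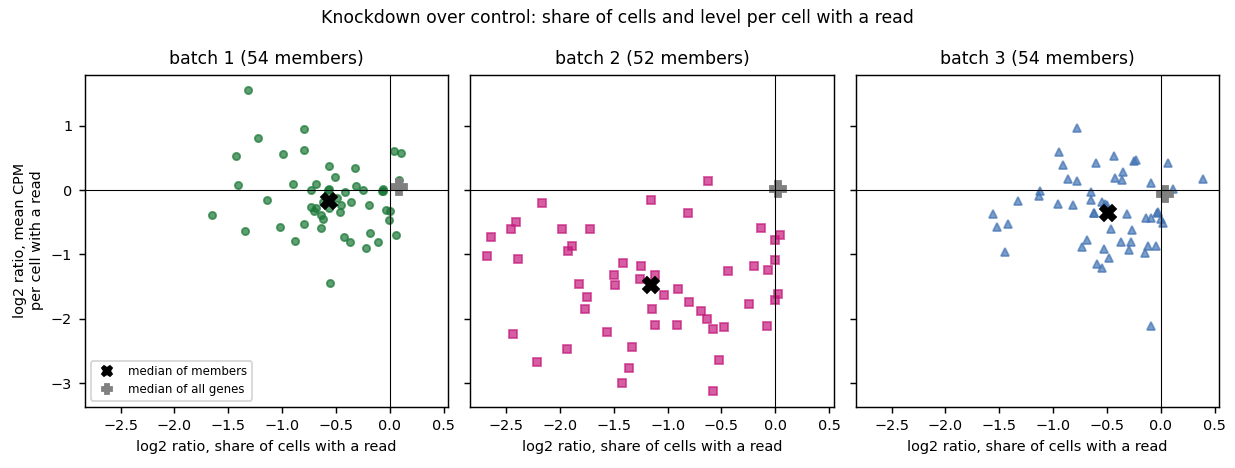
Each mark is 1 member: log2 ratio, knockdown over control, of the share of cells with a read (x axis) and of the mean CPM per cell with a read (y axis), by batch. In batch 2 the median of the members (cross) lies at -1.15 and -1.47, against -0.56 and -0.17 in batch 1 and -0.49 and -0.35 in batch 3, with the median of all genes (plus sign) near 0.

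Shares of cells with a read were lower in every knockdown library than in every control library for 36 of 54 members, against 6.44% of the 17029 genes with reads in at least 5% of cells. They were higher without overlap in 1 member, TUBB4B, against 15.6% of those genes. With at least 5 reads 38 members were lower without overlap, against 6.91% of 13870 genes, and after thinning 41, against 7.95% of 13693 genes. The median share over the members was 62.5%, 77.3% and 50.7% in control and 41.7%, 33.1% and 32.0% in knockdown. With at least 5 reads it was 44.1%, 59.8% and 38.1% in control and 27.3%, 15.4% and 25.4% in knockdown.

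Single members divided differently between share and level. TOP2A had a read in 76.3%, 100% and 62.7% of control cells and in 24.2%, 21.5% and 21.3% of knockdown cells. In the cells with a read its level was 273, 197 and 168 CPM in control and 208, 30.9 and 130 CPM in knockdown, so that in batches 1 and 3 the share made up most of its difference, and in batch 2 both parts were large. MELK had a read in 51.3%, 75.8% and 65.7% of control cells and in 34.8%, 13.8% and 24.6% of knockdown cells. Its level in cells with a read was 152, 153 and 108 CPM in control and 56, 101 and 75 CPM in knockdown, so that in batch 1 the level part (-1.45) exceeded the share part (-0.56), unlike the median of the members. With 3 shares against 3 the smallest exact two-sided permutation p is 0.1, which both genes reached.

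CBX5 was the other extreme. It had a read in 100% of cells in all 6 libraries, so its difference lay wholly in the level, which was 565, 820 and 560 CPM in control and 450, 385 and 410 CPM in knockdown. CCNB1 had a read in 86.8%, 98.5% and 82.1% of control cells and 83.3%, 83.1% and 77.0% of knockdown cells, which overlapped. Its level in cells with a read was 343, 562 and 225 CPM in control and 348, 164 and 243 CPM in knockdown, lower only in batch 2. PLK1 had a read in 44.7%, 59.1% and 25.4% of control cells and in 31.8%, 9.23% and 21.3% of knockdown cells.

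Members were also counted cell by cell. The median number of members with a read was 32, 40 and 24 per control cell and 21, 19 and 20 per knockdown cell. With at least 5 reads it was 16.5, 34.5 and 15 in control and 12.5, 13 and 15 in knockdown, where the batch 3 libraries were equal. At least 20 members were found in 93.4%, 100% and 79.1% of control cells and in 63.6%, 49.2% and 50.8% of knockdown cells, or 90.8% ± 10.7 against 54.6% ± 7.90 (SD, n = 3). The exact 95% Clopper-Pearson intervals, which cover counting error only, ran from 67.4 to 88.1% in the lowest control library and from 50.9 to 75.1% in the highest knockdown library. This limit cut through a dense range, since 18 cells of knockdown library 2 and 22 of control library 3 lay within 2 members of it.

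**Figure D4:**
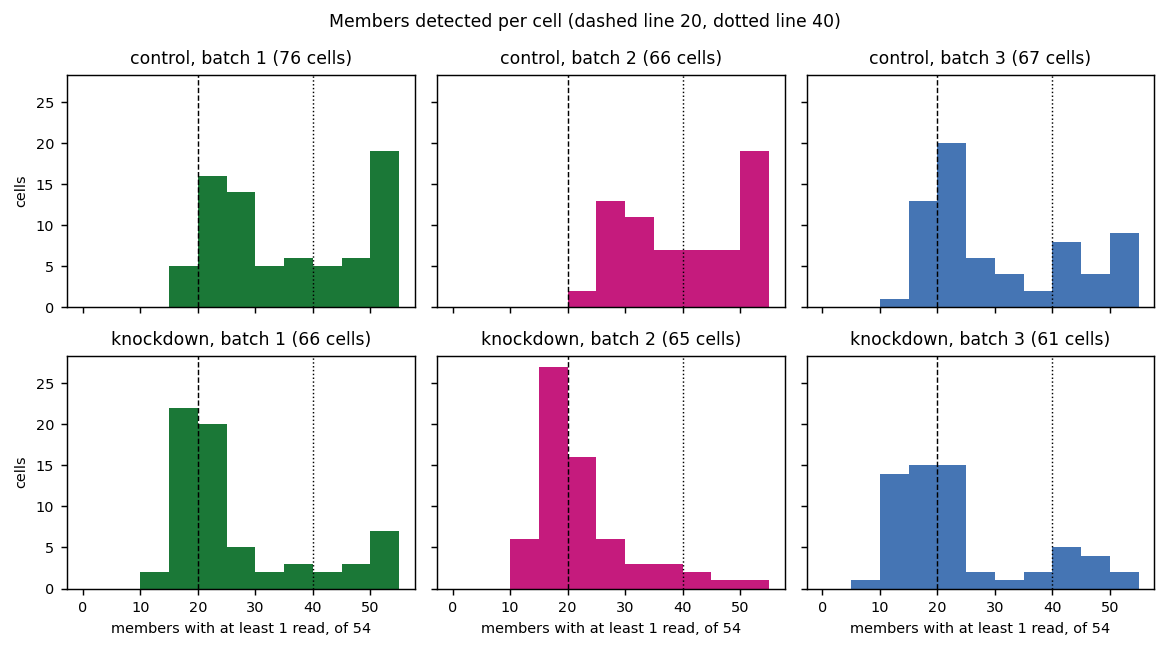
Number of cells (y axis) by the number of the 54 members with at least 1 read (x axis), for each library, with lines at 20 and 40 members. Cells with 40 or more members numbered 33 of 66 in control library 2 and 4 of 65 in knockdown library 2.

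A second limit of 40 members was set after the numbers per cell were seen. It marks a range of detection, not a cell type or a phase. In control library 2 it fell on the median cell, with no gap there, and in knockdown library 2 the cells above it were the end of a tail. Cells with at least 40 members numbered 30 of 76, 33 of 66 and 21 of 67 in control (39.5%, 50% and 31.3%) and, in the knockdown arm, 12 of 66, 4 of 65 and 11 of 61 (18.2%, 6.15% and 18.0%). The arms did not overlap, at 40.3% ± 9.35 and 14.1% ± 6.90 (SD, n = 3), and between 3 and 6 cells of a library lay within 2 members of the limit. Counted with at least 5 reads the shares were 32.9%, 40.9% and 22.4% against 15.2%, 3.08% and 9.84%. Without cells over 20% mitochondrial reads they were 49.1%, 53.4% and 34.4% against 20%, 6.15% and 18.6%. Median depth in these cells was 1009445 to 1131788 reads in control and 1284164 to 1421376 in knockdown, so the knockdown cells in this range were not the shallower ones.

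Levels were then read above and below that limit. The limit is itself set by reads of the same members, so these values describe the 2 ranges and test nothing. In cells with at least 40 members the mean summed level of the members was 15232, 15773 and 11868 CPM in control and 17259, 10076 and 9667 CPM in knockdown, which overlapped. Below it the means were 1833, 3435 and 1730 CPM in control and 1865, 1776 and 1741 CPM in knockdown, so that control library 2 alone stood apart. For single members the upper range held the cells with at least 40 of the other members, so its cells can differ between members. Within this upper range 17, 43 and 38 of 54 members were lower in knockdown in batches 1, 2 and 3. The medians were 0.19, -0.86 and -0.34 on the log2 scale. Below it 33, 41 and 30 members were lower, with medians of -0.22, -0.65 and -0.15. Knockdown library 2 has at most 4 cells in the upper range, and these values have no error of their own. In that library the cell with the most reads of a member, taken for each member separately, held a median of 34.4% of that member's reads. The median was 10.5 to 22.4% in the other 5.

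**Figure D5:**
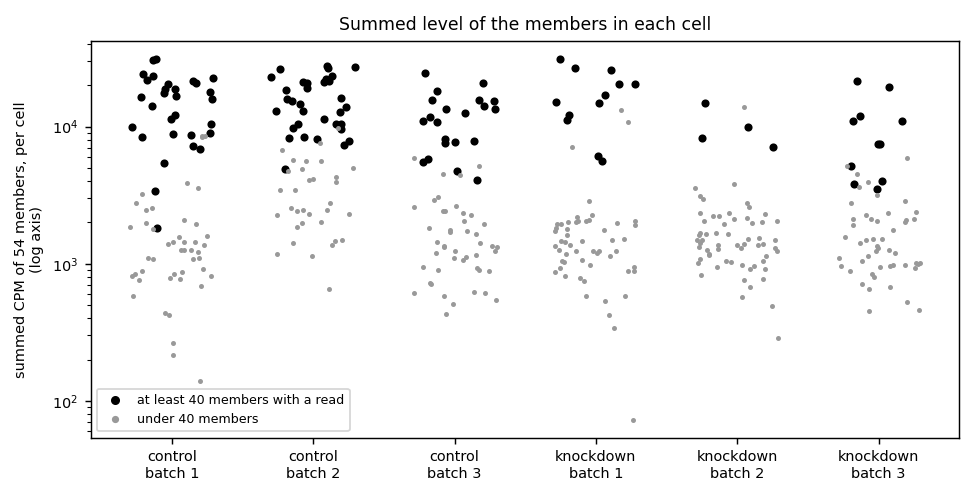
Summed CPM of the 54 members in each cell (log y axis) by library (x axis), with cells of at least 40 members in black and the others in grey. The black cells number 30, 33 and 21 in control and 12, 4 and 11 in knockdown, and their levels overlap between the arms.

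Members also differed in how far their reads were confined to those upper cells. CBX5, TUBB4B, CKAP5, ANP32E and LBR had 2.14 to 3.41 times the mean CPM there of the other control cells, while AURKB, KIF23, NDC80 and PSRC1 had 34.8 to 37.7 times and CENPA 73.6 times. The 9 members with a ratio under 5 had medians of -0.46, -1.22 and -0.38 in batches 1, 2 and 3 on the log2(CPM + 1) scale. The 13 members with a ratio of 20 or more had -0.91, -3.24 and -1.26. The medians of both sets were therefore most negative in batch 2, those of the confined members more so. Single members departed from this: CDC25C, with the widest batch 2 gap among members with a mean of at least 5 CPM, had a ratio under 5. The ratios use the same control cells as the differences, so the 2 are not independent.

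Other genes of the cell cycle were read from lists. Over all genes, edgeR called 0.384% lower and 0.394% higher, and 7.08% were lower at an unadjusted p under 0.05. By DESeq2 4.51% were lower. A list of 54 other mitotic genes had 0 calls by edgeR, 31 members at an unadjusted p under 0.05 (all lower), 23 lower by DESeq2 and a median of -1.19. Its batch medians were -0.77, -2.01 and -0.63. Among its genes with a mean of at least 5 CPM the 4 largest differences were in DEPDC1 (-2.86), the separase gene ESPL1 (-2.85), the abscission gene CEP55 (-2.28) and FAM83D (-2.27), none of which passed (edgeR adjusted p from 0.0583 to 0.230). Of 44 S phase genes 3 fell and 0 rose, and the median was -0.88. These were SLBP, which binds histone mRNA (log2 -2.02), the ribonucleotide reductase subunit RRM2 (-1.98) and the deubiquitinase USP1 (-1.17), and E2F8, a repressor of the E2F family, had -2.64 (adjusted p = 0.0517). With batch as a block none of the 3 passed (adjusted p = 0.0977, 0.153 and 0.0690). At an unadjusted p under 0.05 by edgeR, 28 of the 44 were lower and 0 higher, and DESeq2 called 25 lower. In CPM, 30 of the 44 (68.2%) were lower without overlap between the arms, against 10.1% of all genes and 23 of the 54 members. The S phase medians by batch were -0.97, -1.21 and -0.40, a narrower range than that of the members; the difference was not tested.

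Among 21 regulators of the program 1 rose and 0 fell, where 0.394% and 0.384% of all genes did. CDKN1A, the CDK inhibitor p21, was at 46.8, 43.4 and 49.4 CPM in control and 168, 139 and 143 CPM in knockdown (log2 1.69, SE 0.139, edgeR adjusted p = 0.00391, 0.0388 with batch as a block). Its difference was 1.82, 1.65 and 1.52 in batches 1, 2 and 3, and did not stand out in batch 2. FOXM1, the activator of G2 genes, was at 35.1, 26.2 and 14.6 CPM in control and 11.7, 7.36 and 9.99 CPM in knockdown (log2 -1.39, edgeR adjusted p = 0.159). FOXM1 was lower in the knockdown library of every batch, and its lowest value was that of knockdown library 2. MYBL2, B-MYB, was at 30.2, 16.7 and 18.0 CPM in control and 8.53, 16.4 and 7.27 CPM in knockdown (log2 -1.01, adjusted p = 0.338), so that it was level in batch 2, where the members differed most. RBL1, the pocket protein p107 of the DREAM complex, was also level in batch 2, at 33.4 CPM in each arm. Over the 21 regulators the medians in batches 1, 2 and 3 were -0.35, -0.35 and -0.36 on the log2(CPM + 1) scale. Lower in the knockdown library were 15, 18 and 15 of the 21, against 10035, 9880 and 10098 of all 20326 genes. The part of any regulator in the batch 2 difference was not tested.

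Other values were set beside the batches. Of 30 interferon response genes 21 rose and 0 fell, where 0.394% and 0.384% of all genes did. With batch as a block 12 rose, where 26 of all 20326 genes did. Their summed level was 403 to 468 CPM in control and 8122, 6938 and 8132 CPM in knockdown, lowest in batch 2. CXCL11, RSAD2 and IFNB1 had no read in any control library and were at 46.9 to 74.8, 41.7 to 77.5 and 20.5 to 28.8 CPM in knockdown. CCL5 was at 45.4, 301 and 356 CPM in knockdown and at most 0.03 CPM in control. Of the luminal markers KLK3 and KLK2 fell (log2 -1.51 and -1.26, edgeR adjusted p = 0.0416 and 0.0446; 0.154 and 0.0703 with batch as a block), and TMPRSS2 and SLC45A3 had -1.40 and -1.26 without passing. The luminal keratins, named after their values were seen, lay the other way: KRT8 was at 40.6 to 52.5 CPM in control and 74.1 to 91.9 in knockdown, and KRT18 at 121 to 133 and 182 to 203 CPM. They did not pass edgeR (adjusted p = 0.0930 and 0.0641) but did pass DESeq2 (0.000234 and 9.4e-06). Median depth per cell was 1093736 reads in control library 2 and 1092399 in knockdown library 2, closer than in the other batches. The part of these values or of cell size in the batch 2 difference was not tested. Plate and arm cannot be told apart within a batch.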

How the data were processed

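The deposited values are raw read counts per gene and cell, with no molecular identifiers. The submitters' processing notes name TopHat2 2.1.0, HTSeq 0.6.1, FastQC 0.11.3, edgeR 3.2.2 and build GRCh38.p3. How the steps were ordered, which annotation was used and whether counting used strand is not given in the sources here. Of 54 members, 19 share exon bases with another GENCODE 29 gene, ANLN, PLK1, CCNA2, NUSAP1 and CDC25C among them, and their reads may include the neighbour's. Per the labels' protocols, sites with 0 or several cells were left out under the microscope, and no doublet caller was run.

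Of 414 samples, 401 single cells were used. Left out were 4 cells without a column, 6 libraries of several cells, 1 unassigned repeat library and the first runs of 2 repeated cells; 4 value columns matched no label. Reads per cell ran from 169244 to 2353816 (median 1150826). Amplified reads are not independent molecules.

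Counts were summed per arm and batch and tested with edgeR 4.0.16 (R 4.3.3; robust quasi-likelihood, trimmed mean scaling, filterByExpr with a minimum count of 10, no covariate, Benjamini-Hochberg adjustment over 20326 genes; common dispersion 0.497). The labels number batches across arms, so batch pairs the libraries. Deviations of same-numbered libraries correlated at 0.0780, 0.000547 and 0.000233, and the block is shown where it changes a call. DESeq2 1.42.0, limma 3.58.1 on equal weight per cell, other scalings, filters and left-out libraries or cells were alternatives. Batch differences are of log2(CPM + 1). Shares count cells with at least 1 read, also with at least 5 reads and after thinning to 100000 reads. Code was tested on simulated data. Cells were handled in Python 3.11.15 (pandas 2.3.3, numpy 2.4.6, scipy 1.17.1), and plots in matplotlib 3.10.9.

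Members and lists were chosen with earlier results of these data known, so no count over them is independent support. Genes named with values in every library are members past an adjusted p of 0.05, the 2 most abundant of each role, CDK1, CCNB1, PLK1, AURKA, CDC20, MKI67 and TOP2A, the 3 members whose batch 2 difference deviated most and the 3 that deviated least from the other batches (mean of at least 5 CPM), and, outside the members, CDKN1A, FOXM1 and MYBL2. Up to 4 genes of each list were also named, most with a fold change, a range or part of the libraries only.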

Additional observations from a re-analysis of the deposited data

How the results depend on the processing

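The count of genes past an adjusted p of 0.05, 158 as reported, and that of members among them, 1 as reported (MELK), depended on the test and the filter. They were 38 and 0 with batch as a replicate block, 1902 and 24 with DESeq2, 309 and 5 without the filter on low counts, 242 and 2 with equal weight per cell, and 428 and 10 after thinning. Leaving out 1 library gave 46 to 69 genes, with MELK still past the threshold each time. Leaving out both libraries of batch 1, 2 or 3, an alternative chosen after seeing the data, gave 7, 5 and 11 genes and 0 members. The median log2 fold change of the members lay between -1.86 and -0.75 under these alternatives and was -1.38 with the block. Genes with shares of cells lower in every knockdown library numbered 1096, and 1859 without cells over 20% mitochondrial reads, while those with higher shares numbered 2655 and 1718. The difference in the share of cells with at least 20 members, -36.3 percentage points, was -11.8 with 15 members, -44.8 with 25 and -26.1 with 40. It was -42.1 to -31.7 with 1 library left out. In batch 2 the share part of the log2 ratio moved from -1.15 to -1.61 with at least 5 reads and to -1.63 after thinning. The cause of these differences was not tested. Of 391 values of 23 named members under 17 alternatives, 0 changed sign; the block changed the call of no member but MELK. Depth limits members with few reads, and 3 libraries per arm leave the exact tests a smallest p of 0.1.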
